A study of Mus musculus with 9 samples.

Results

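The type I interferon response genes are genes that cells switch on after interferon alpha or beta binds its receptor. A list of 43 such genes was given by name, and all 43 were found among the 54232 genes of the count table. They were followed in lacrimal glands, which make the aqueous layer of tears, from freely fed C57BL/6J female mice. The series holds 9 RNA libraries of whole glands, 3 at each of 2, 12 and 24 months, and the labels name no genetic change or treatment in any group. Titles of the youngest group read 8W. The series title concerns lymphoid structures in old glands, and the design text sets out the comparison of the 3 ages. Whether the 3 libraries of an age are separate mice is not stated, so p-values measure the spread between these samples alone, which may be technical.

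Type I interferons are secreted proteins made by cells that detect foreign or misplaced RNA and DNA. They bind a receptor of the Ifnar1 and Ifnar2 chains, whose kinases Jak1 and Tyk2 phosphorylate Stat2. Stat2 and Irf9 are parts of a transcription factor that binds the interferon-stimulated response element, a short DNA motif near the start of many responding genes. The products detect viral nucleic acid, block translation and viral assembly, tag proteins with the ubiquitin-like protein Isg15, and raise or damp the response itself. Interferon gamma uses another receptor, and some of its target genes are also targets of type I interferon.

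Promoter sequences show what many of the members share beyond their names. RefSeq promoters of assembly GRCm38.p6, taken from 250 bases before to 50 bases after each start, were matched for 31 of the 43 members. The response element was searched as GAAA, any 2 bases, then GAAA on either strand, which on the opposite strand reads TTTC, any 2 bases, then TTTC, and overlapping matches were counted. It stood in 15 of the 31 members, or 48.4%, and in 1079 of all 27025 genes with a promoter of the same length, or 3.99%. The 10 bases of each match are in capitals in the stretches below, which read in the direction of the gene. Isg15 is shown for its 3 overlapping matches, Oas1a and Bst2 for 2 overlapping matches just before or further from the start, Oas3 for a lone match, and Ifit1 for 2 separate ones.
Isg15: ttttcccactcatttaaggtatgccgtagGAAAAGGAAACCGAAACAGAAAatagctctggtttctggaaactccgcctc
Oas1a: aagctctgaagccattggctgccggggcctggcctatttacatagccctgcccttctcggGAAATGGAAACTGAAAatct
Oas3: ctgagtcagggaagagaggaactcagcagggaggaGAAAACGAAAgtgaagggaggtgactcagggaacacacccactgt
Bst2: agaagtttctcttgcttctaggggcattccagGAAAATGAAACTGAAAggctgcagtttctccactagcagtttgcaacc
Ifit1: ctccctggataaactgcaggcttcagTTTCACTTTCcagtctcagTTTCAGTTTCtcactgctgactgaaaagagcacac
These stretches are chr4:156200846-156200925 (minus strand) for Isg15, chr5:120907526-120907605 (minus) for Oas1a, chr5:120777690-120777769 (minus) for Oas3, chr8:71537555-71537634 (minus) for Bst2 and chr19:34640759-34640838 (plus) for Ifit1.

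The neighbours Ifit3 and Ifit3b are shown because their promoters share a stretch around both matches, with 100 of 100 bases identical. The rest of the 2 promoters was not compared.
Ifit3: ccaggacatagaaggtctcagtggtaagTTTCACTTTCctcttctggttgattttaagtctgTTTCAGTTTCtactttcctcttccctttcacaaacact
Ifit3b: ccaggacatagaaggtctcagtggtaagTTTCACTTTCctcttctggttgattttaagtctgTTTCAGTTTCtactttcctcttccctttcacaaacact
Lgals3bp is shown as a member without a match, from the 80 bases before its start.
Lgals3bp: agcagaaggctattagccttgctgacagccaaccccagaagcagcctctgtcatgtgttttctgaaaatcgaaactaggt
They lie at chr19:34583345-34583444 (plus) for Ifit3, chr19:34607741-34607840 (plus) for Ifit3b and chr11:118401960-118402039 (minus) for Lgals3bp. A match is a description of letters and not a shown binding site, and its absence from this window says nothing about the factor.

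**Figure D1:**
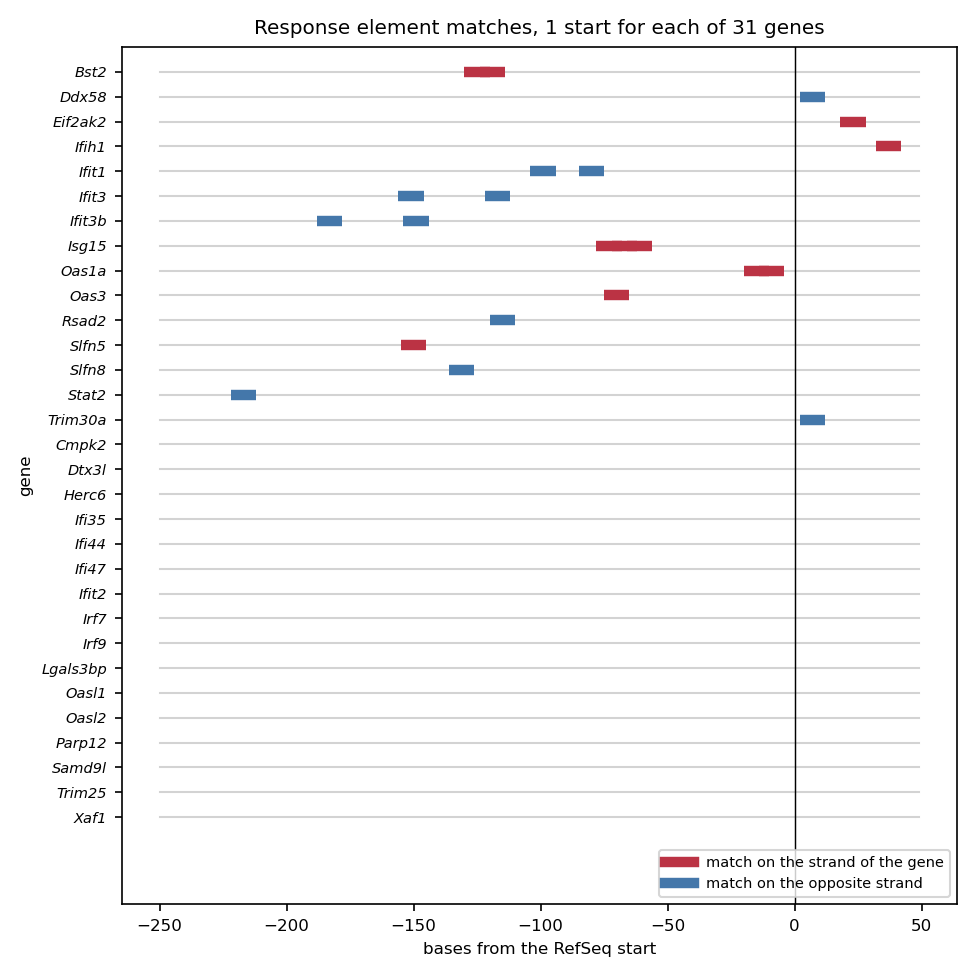
Places of GAAA, any 2 bases, GAAA in the promoters of the 31 matched members, 1 RefSeq start per gene (the one of lowest coordinate), with the distance from the start in bases on the x axis and the strand of the match in colour. The 15 members with a match are at the top; most matches lie before the start, and those of Ddx58, Eif2ak2, Ifih1 and the drawn start of Trim30a lie after it. Another RefSeq start of Trim30a, not drawn, has its match before the start, at -36 to -27.

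Several members are also neighbours on a chromosome. Ifit2, Ifit3, Ifit3b and Ifit1 follow each other on chromosome 19, 7111 to 27469 bases apart. Oas2 and Oas3 are 3244 bases apart and Oasl2 and Oasl1 11005 bases apart on chromosome 5. Rsad2 and Cmpk2 lie 12751 bases apart on chromosome 12, where Ifi27 and Ifi27l2a are 1927 bases apart. Parp9 and Dtx3l overlap by 682 bases on opposite strands of chromosome 16, and since the strand setting of the counting is not given here, reads in that overlap cannot be assigned. Some sequence is shared with other genes: 40.9% of the 100-base stretches of Oas1a transcripts also occur in Oas1g, and 31.7% of those of Ifit3 occur in Ifit3b, so counts of these genes are uncertain where such reads could be split.

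Depth ranged from 40516863 to 42573877 counts per library, and 14958 genes held enough counts to be tested with edgeR's quasi-likelihood test, with Benjamini-Hochberg adjustment over all of them and a threshold of 0.05. Levels are CPM on TMM-scaled library sizes, with means ± SD of the 3 libraries at each age (n = 3), and differences are log2 fold changes with their standard error (SE). Under scaling by library totals alone all genes had a median log2 fold change of 0.31 in both comparisons with 2 months, against 0.01 in both with TMM. It changed the split of calls from 808 higher and 377 lower to 1613 and 80 at 12 months, and from 1467 and 1130 to 2625 and 192 at 24 months. The acinar markers fixed for the tissue, among them Ltf and Aqp5, were present in all 9 libraries, with a summed level of 148000 to 233000 CPM. Salivary gland markers were high in 2-month replicate 3, 12-month replicate 2 and 24-month replicate 2 (809, 359 and 244 CPM), and skeletal muscle markers in 12-month replicates 1 and 3 (26.2 and 50.1 CPM).

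Of the 43 members, 41 were tested, and Ifi47 and Slfn8 had too few counts. The calls lay at 24 months, among RNA and DNA sensors, the Isg15 system, the Parp family and some effectors, and Samd9l was the call at 12 months. From 2 to 24 months 14 of the 41 rose and 0 fell, against 9.81% of all tested genes higher and 7.55% lower. From 12 to 24 months 11 rose and 0 fell, against 2.79% and 1.6% of all tested genes. From 2 to 12 months 1 rose and 0 fell, against 5.4% and 2.52%, and 7 had an unadjusted p under 0.05. DESeq2 called 3 higher and 0 lower from 2 to 12 months. Across the 3 ages together 16 of 41 passed the test, against 17% of all genes.

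The median log2 fold change of the 41 members was 0.85 from 2 to 24 months, with a range of 0.10 to 2.19 and 41 of 41 above 0. It was 0.95 from 12 to 24 months, with a range of -0.30 to 2.20 and 39 of 41 above 0, and -0.09 from 2 to 12 months, with 14 of 41 above 0. The medians over all tested genes were 0.01, -0.02 and 0.01. With scaling by library totals the members' medians were 1.19, 0.96 and 0.25, and 29 of 41 were then above 0 from 2 to 12 months. The sign of that median also turned without 2-month replicate 2 (0.05, 22 of 42 above 0) and without the 2 libraries with muscle transcripts (0.18, 27 of 42). The 2 comparisons with 24 months share the 24-month libraries, and both comparisons with 2 months share the 2-month libraries, so their values are not independent. In 14 of the 41 tested members all 3 libraries at 24 months lay above all 3 at 2 months (18.4% of all tested genes), and in 20 above all 3 at 12 months (12.1%).

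**Figure D2:**
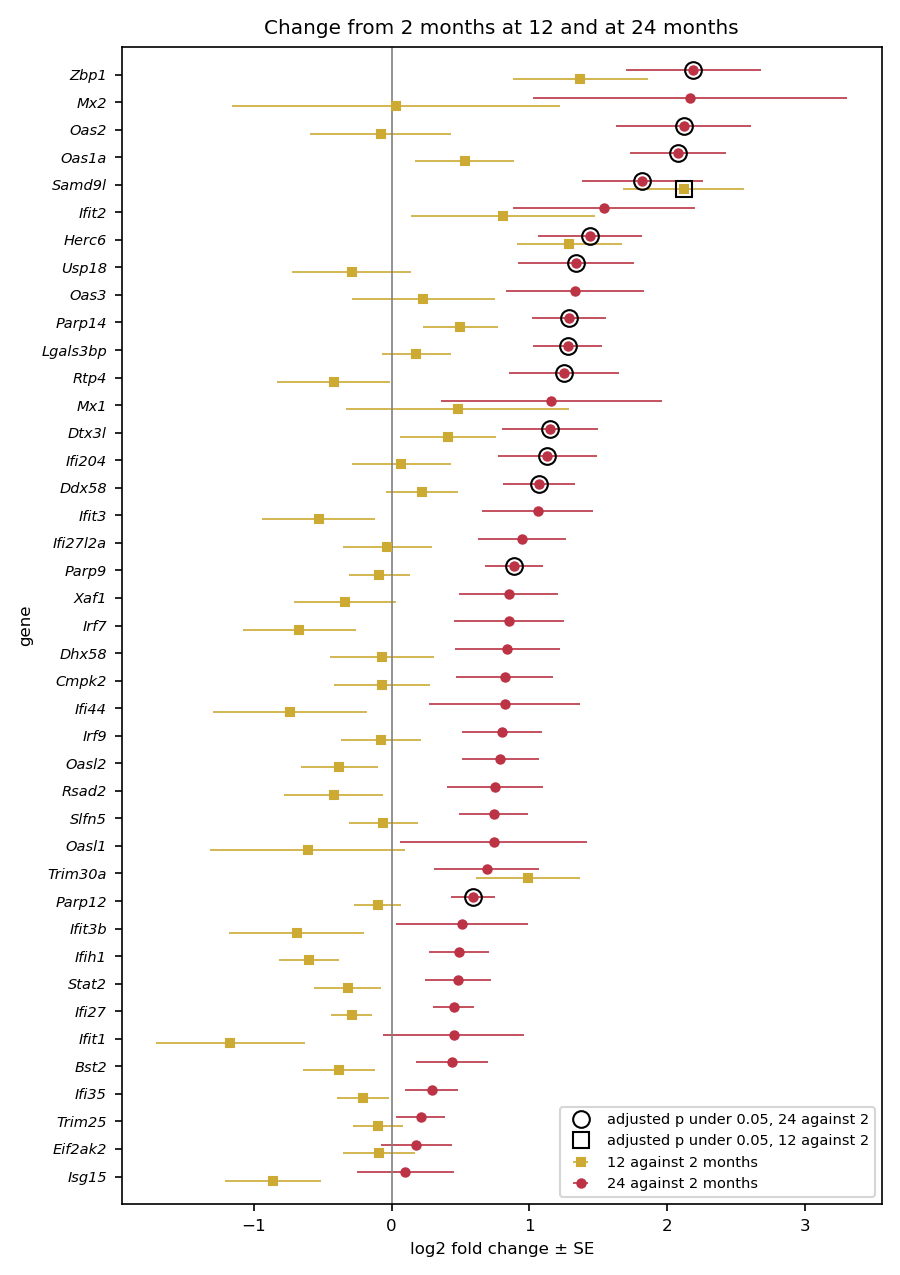
Log2 fold change ± SE from 2 months for the 41 tested members, at 12 months (squares) and 24 months (circles), ordered by the value at 24 months. All 41 circles lie above 0, and the 14 that passed the test at 24 months and the 1 at 12 months are ringed or boxed.

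The rise was not even among the 3 libraries at 24 months. The median shift of the 41 members from the 2-month mean, in log2(CPM + 0.25), was 0.96 in replicate 1, 0.16 in replicate 2 and 1.26 in replicate 3. It was -0.28, 0.40 and -0.13 at 2 months and -0.28, 0.22 and -0.26 at 12 months, while the median of all tested genes stayed between -0.01 and 0.02 in every library. Replicate 2 at 24 months thus lay below the highest library of both earlier ages. It was the lowest of its age for 40 of 41 members, a share that was not counted over all genes. It was the highest of its age for 0 of 41 (29.6% of all tested genes). Replicate 3 at 24 months was the highest of all 9 libraries for 30 of 41 (15.1% of all tested genes). Summed over the members the level was 425, 254 and 457 CPM at 24 months, against 197, 278 and 210 at 2 months and 184, 244 and 191 at 12 months. Replicate 2 at 24 months is also the library of that age with the salivary markers. At 12 months the library with those markers, replicate 2, was the highest of its age for 35 of 41 members (34.1% of all tested genes). At 2 months the library with most of them, replicate 3, was the highest for 8 of 41 (29.0%). The part of salivary tissue in these levels was not tested.

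The number of calls depended on single libraries. Without 24-month replicate 3, 5 members rose from 2 to 24 months and 0 from 12 to 24 months, and without 24-month replicate 2, 22 and 18 rose. Against 12 months 0 members passed without 12-month replicate 1, 4 without 12-month replicate 3, 6 without 12-month replicate 2 and 1 without 24-month replicate 1. Against 2 months 3 passed without 2-month replicate 3, and 9 without 2-month replicate 1 or 24-month replicate 1. In all these fits the members' median stayed above 0, between 0.75 and 1.12 from 2 to 24 months and between 0.79 and 1.19 from 12 to 24 months. Without both libraries with muscle transcripts 0 members passed from 12 to 24 months, and the median was 0.73.

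**Figure D3:**
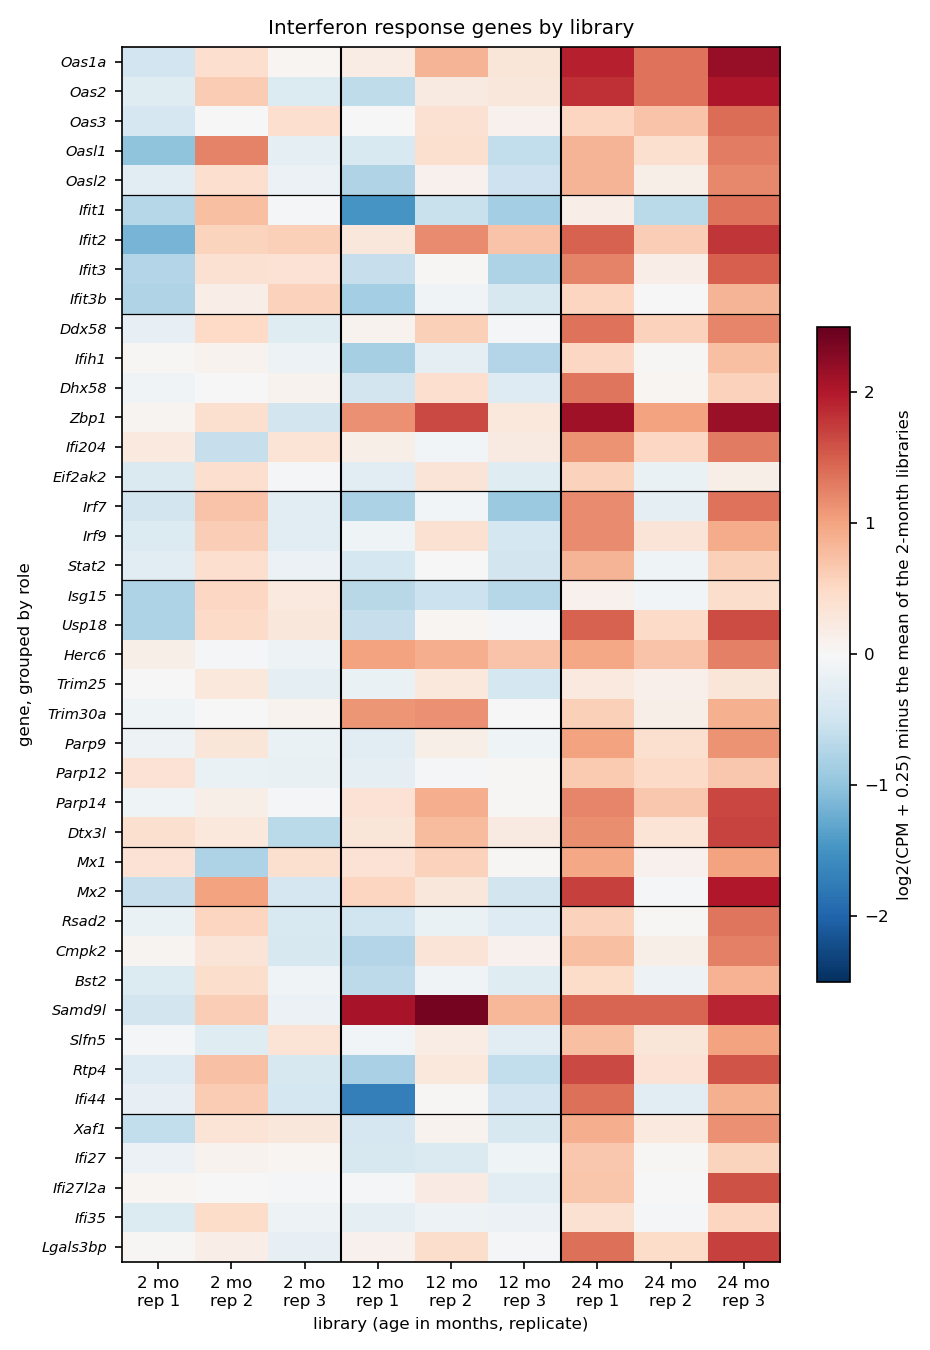
Difference of each tested member from its 2-month mean in log2(CPM + 0.25), with genes in rows grouped by role and the 9 libraries in columns. The columns of 24-month replicates 1 and 3 are the reddest, and replicate 2 of that age is paler.

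Against both earlier ages 7 members passed the test: Lgals3bp, Oas1a, Oas2, Parp12, Parp9, Rtp4 and Usp18. A further 7 (Ddx58, Dtx3l, Herc6, Ifi204, Parp14, Samd9l and Zbp1) passed against 2 months alone, and 4 (Ifi27, Ifih1, Ifit3 and Oasl2) against 12 months alone. A pass in one comparison and not in the other is no test of their difference. In GRCm38 Oas1a (ENSMUSG00000052776) lies at chr5:120896256-120907521, Oas2 (ENSMUSG00000032690) at chr5:120730333-120749853 and Usp18 (ENSMUSG00000030107) at chr6:121245906-121270917. Lgals3bp (ENSMUSG00000033880) lies at chr11:118392751-118402092, Parp9 (ENSMUSG00000022906) at chr16:35938470-35972605, Parp12 (ENSMUSG00000038507) at chr6:39086410-39118349 and Rtp4 (ENSMUSG00000033355) at chr16:23520291-23614222.

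Among proteins that detect RNA or DNA, the oligoadenylate synthetases make the messenger that activates the RNA-cutting enzyme RNase L. Of the 5 tested, 2 rose from 2 to 24 months and 3 from 12 to 24 months. Oas1a, whose promoter held a pair of overlapping matches, stood at 0.573, 1.29 and 0.934 CPM at 2 months, 1.06, 1.80 and 1.16 at 12 months, then 4.14, 2.70 and 4.93 at 24 months. All 3 oldest libraries lay above all 6 others. Its means were 0.933 ± 0.359, 1.34 ± 0.401 and 3.93 ± 1.13 CPM, and it rose by 2.08 (SE 0.35, edgeR adjusted p = 0.00305) from 2 to 24 months and by 1.55 (SE 0.34, adjusted p = 0.0237) from 12 to 24 months. The call against 2 months held when any 1 of the 9 libraries was left out, and that against 12 months ended without replicate 1 or 3 of either age (adjusted p up to 0.0941).

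Oas2 had 0.324, 0.852 and 0.311 CPM at 2 months, 0.203, 0.572 and 0.614 at 12 months, then 2.25, 1.56 and 2.62 at 24 months. The oldest group again did not overlap the others. Oas2 rose by 2.12 (SE 0.49, edgeR adjusted p = 0.0131) from 2 months and by 2.20 (SE 0.48, adjusted p = 0.0241) from 12 months. Leaving out 2-month or 24-month replicate 3 ended the first call (adjusted p up to 0.0579), and leaving out 12-month replicate 1 or 2 or 24-month replicate 1 or 3 ended the second (up to 0.0843). Oasl2, an oligoadenylate synthetase-like protein with higher counts, had 7.87, 12.9 and 8.66 CPM, then 5.58, 10.3 and 6.64, then 17.5, 10.7 and 22.5. Its groups overlapped between 2 and 24 months (0.79, adjusted p = 0.0736) and were apart from 12 months, from which it rose by 1.17 (SE 0.28, edgeR adjusted p = 0.0373). Leaving out 12-month replicate 1 or 3, 24-month replicate 1 or 3 or 2-month replicate 3 ended that call (adjusted p up to 0.135).

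Oas3 had 0.174, 0.323 and 0.509 CPM at 2 months, 0.316, 0.491 and 0.364 at 12 months, then 0.576, 0.688 and 1.25 at 24 months. Its oldest libraries lay above the others, with a difference of 1.33 from 2 months that missed the threshold (edgeR adjusted p = 0.0907). Oasl1 differed by 0.74 from 2 months (adjusted p = 0.502).

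The receptors Ddx58 (RIG-I) and Ifih1 (MDA5) bind viral RNA in the cytosol, and Dhx58 (LGP2) regulates them. Zbp1 binds nucleic acid in the Z form, Ifi204 binds DNA, and Eif2ak2 (PKR) is a kinase that stops translation when it binds double-stranded RNA. Of these 6, Ddx58, Zbp1 and Ifi204 rose from 2 to 24 months and Ifih1 rose from 12 to 24 months. Zbp1 had the highest value of the 41 members from 2 to 24 months. It stood at 0.598, 0.822 and 0.340 CPM at 2 months, 1.54, 2.29 and 0.727 at 12 months, then 3.30, 1.38 and 3.38 at 24 months. The groups at 2 and 24 months did not overlap, and the 12-month libraries reached into both. Zbp1 rose by 2.19 (SE 0.49, edgeR adjusted p = 0.0112) from 2 to 24 months, a call that ended without 2-month replicate 3 (adjusted p = 0.0501). Its difference from 2 to 12 months was 1.37 (adjusted p = 0.113).

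Ddx58 had 6.13, 10.2 and 5.74 CPM at 2 months, 7.59, 10.9 and 7.0 at 12 months, then 18.7, 10.7 and 16.8 at 24 months. The oldest group lay above the youngest by a narrow margin, 10.7 against 10.2 CPM. Ddx58 rose by 1.07 (SE 0.26, edgeR adjusted p = 0.0151) from 2 to 24 months, and not without 2-month replicate 1 or 3 (adjusted p up to 0.0668). Ifi204 had 1.12, 0.529 and 1.22 CPM, then 1.04, 0.859 and 1.11, then 2.28, 1.42 and 2.60. Its groups were apart and it rose by 1.13 (SE 0.36, edgeR adjusted p = 0.0484), a call that held in 1 of 9 fits with a library left out, that without 24-month replicate 2, and reached an adjusted p of 0.167 in the others. About 10.7% of the 100-base stretches of its transcripts also occur in related genes.

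Ifih1 had another course. It stood at 5.13, 5.37 and 4.55 CPM at 2 months, 2.69, 4.27 and 2.93 at 12 months, then 7.31, 5.13 and 8.66 at 24 months. All 3 libraries at 12 months were below those at 2 months, which 12.4% of all tested genes also showed, with a difference of -0.60 that did not pass (edgeR adjusted p = 0.125). Ifih1 then rose from 12 to 24 months by 1.09 (SE 0.22, edgeR adjusted p = 0.0168), though not without 12-month replicate 1 or 24-month replicate 3 (adjusted p up to 0.0736). Dhx58 differed by 0.84 from 2 to 24 months (adjusted p = 0.148) and Eif2ak2 by 0.18 (adjusted p = 0.674).

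**Figure D4:**
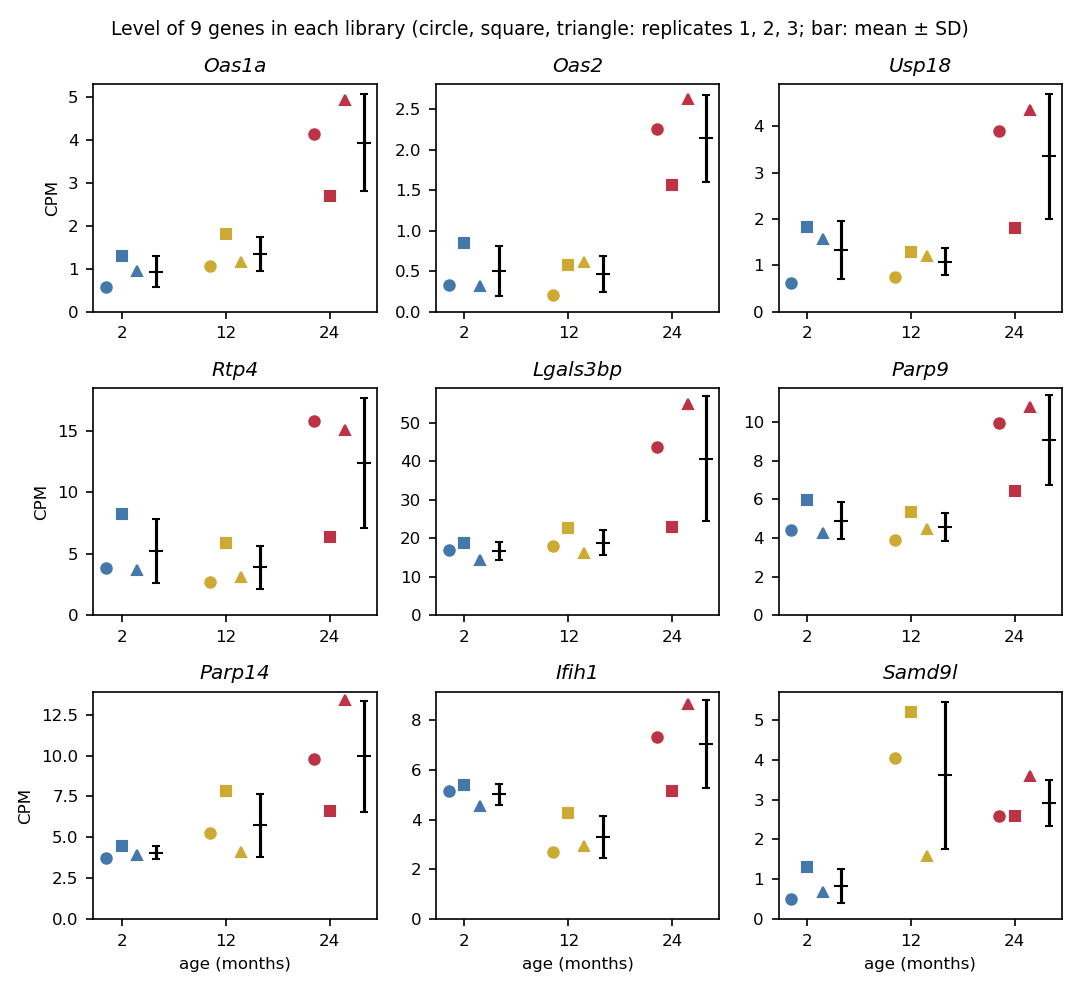
CPM of 9 members in each library by age in months, with replicates 1, 2 and 3 as circles, squares and triangles and the mean ± SD beside them. Oas1a, Oas2, Lgals3bp and Parp9 at 24 months lie above all younger libraries, and Samd9l is already higher at 12 months.

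The 3 transcription factor genes did not pass edgeR's test in any comparison, with 0, 1 and 3 at an unadjusted p under 0.05 from 2 to 12, 2 to 24 and 12 to 24 months. Irf7, which amplifies the response by driving interferon genes, had 4.66, 10.9 and 5.40 CPM at 2 months, 3.64, 6.19 and 3.32 at 12 months, then 15.1, 5.55 and 17.0 at 24 months. Replicates 1 and 3 at 24 months were above all other libraries and replicate 2 was within them. Its difference was 0.85 from 2 to 24 months (edgeR adjusted p = 0.171) and 1.52 from 12 to 24 months (adjusted p = 0.0588). Irf9 and Stat2, which bind the response element as parts of 1 complex, differed by 0.80 and 0.48 from 2 to 24 months (adjusted p = 0.0734 and 0.192).

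Isg15 is the ubiquitin-like tag, Usp18 removes it and damps receptor signalling, and Herc6 is the ligase that attaches it in mice. Trim25 and Trim30a are ubiquitin ligases of the tripartite motif family. Of the 5, Usp18 and Herc6 rose from 2 to 24 months and Usp18 from 12 to 24 months. Usp18 stood at 0.623, 1.82 and 1.56 CPM at 2 months, 0.745, 1.29 and 1.20 at 12 months, then 3.90, 1.81 and 4.35 at 24 months. Replicate 2 at 24 months lay just inside the 2-month range. Usp18 rose by 1.34 (SE 0.42, edgeR adjusted p = 0.0467) from 2 months and by 1.63 (SE 0.42, adjusted p = 0.0498) from 12 months, and each call held in 2 of 9 fits with a library left out. These were the fits without 24-month replicate 2 and without 12-month replicate 3 for the first or 2-month replicate 1 for the second, and the adjusted p reached 0.162 and 0.166 in the others.

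Herc6 had 0.399, 0.323 and 0.283 CPM at 2 months, 0.926, 0.838 and 0.704 at 12 months, then 0.890, 0.711 and 1.15 at 24 months. Both older groups lay above the youngest and overlapped each other. Herc6 rose by 1.44 (SE 0.38, edgeR adjusted p = 0.0234) from 2 to 24 months, beside a difference of 1.29 from 2 to 12 months that missed the threshold (adjusted p = 0.0594). Without 2-month replicate 2 or 3 or 24-month replicate 3 it did not pass (adjusted p up to 0.0992). About 10.3% of its 100-base stretches occur in the overlapping gene Gm45193.

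Isg15, with 3 overlapping matches in its promoter, had the smallest difference of the 41 members from 2 to 24 months. It stood at 0.972, 2.73 and 2.21 CPM at 2 months, 1.04, 1.19 and 1.02 at 12 months, then 1.99, 1.72 and 2.58 at 24 months. The oldest libraries lay within the range of the youngest and above the 12-month group, with differences of 0.10 (edgeR adjusted p = 0.887) and 0.95 (adjusted p = 0.158). Trim30a had its highest mean at 12 months, 1.83 ± 0.801 CPM, and was 1 of 2 members with a negative value from 12 to 24 months (-0.29, edgeR adjusted p = 0.729). The other was Samd9l.

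The poly(ADP-ribose) polymerase family members Parp9, Parp12 and Parp14 and the ubiquitin ligase Dtx3l, which acts in a complex with Parp9, all passed the test from 2 to 24 months, 4 of 4. Parp9 and Parp12 also rose from 12 months. Parp9 stood at 4.41, 5.99 and 4.27 CPM at 2 months, 3.91, 5.36 and 4.48 at 12 months, then 9.98, 6.44 and 10.8 at 24 months. All 3 oldest libraries were above the 6 younger ones. Parp9 rose by 0.89 (SE 0.21, edgeR adjusted p = 0.0152) from 2 months and by 0.98 (SE 0.21, adjusted p = 0.0218) from 12 months. The first call was lost without 2-month or 24-month replicate 3 (adjusted p up to 0.0631) and the second without 12-month or 24-month replicate 1 or 3 (up to 0.0900).

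Parp12 had 8.59, 5.93 and 5.80 CPM, then 5.65, 6.5 and 6.82, then 10.6, 9.33 and 10.8. It was the most even of these genes at 24 months, with all 3 libraries above the rest, and rose by 0.59 (SE 0.16, edgeR adjusted p = 0.0283) and 0.69 (SE 0.16, adjusted p = 0.0331). Neither held without 24-month replicate 1 or 3, the first also without 2-month replicate 2 or 3 (adjusted p up to 0.112) and the second without 12-month replicate 1 or 2 (up to 0.121). Parp14 had 3.76, 4.49 and 3.93 CPM at 2 months, 5.24, 7.83 and 4.11 at 12 months, then 9.79, 6.62 and 13.4 at 24 months. The 12-month group overlapped both others. Parp14 rose by 1.29 (SE 0.27, edgeR adjusted p = 0.00785) from 2 to 24 months, in all 9 fits with a library left out.

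Dtx3l had 4.46, 4.02 and 1.98 CPM at 2 months, 4.13, 5.91 and 3.89 at 12 months, then 7.75, 4.26 and 11.2 at 24 months. Replicate 2 at 24 months lay within the 2-month range. Dtx3l rose by 1.15 (SE 0.35, edgeR adjusted p = 0.0405), and leaving out 2-month replicate 2 or 3, 12-month replicate 1 or 24-month replicate 1 or 3 ended the call (adjusted p up to 0.175).

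The Ifit proteins bind foreign RNA by its end and block its translation. None of the 4 passed from 2 to 24 months, where 2 had an unadjusted p under 0.05 and the family's values ran from 0.45 to 1.54. Ifit3 rose from 12 to 24 months. It had 1.22, 2.97 and 2.89 CPM at 2 months, 1.40, 2.25 and 1.20 at 12 months, then 5.53, 2.5 and 6.66 at 24 months. Replicate 2 at 24 months lay inside the 2-month range and above the 12-month one. Ifit3 rose by 1.59 (SE 0.41, edgeR adjusted p = 0.0466) from 12 months and differed by 1.06 from 2 months (adjusted p = 0.0894). The call held without 2-month replicate 1 or 24-month replicate 2 and in none of the 7 other fits (adjusted p up to 0.154). Its neighbour Ifit3b differed by 1.20 from 12 months (edgeR adjusted p = 0.200).

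Ifit2 had 0.0498, 0.734 and 0.764 CPM at 2 months, 0.565, 1.27 and 0.841 at 12 months, then 1.62, 0.779 and 2.05 at 24 months. The groups at 2 and 24 months were apart by little, and the difference of 1.54 had a wide error (SE 0.66, edgeR adjusted p = 0.132). Ifit1 was lowest at 12 months, with 0.723, 1.57 and 1.25 CPM against 1.40, 4.26 and 2.38 at 2 months. That difference of -1.17 was the lowest of the 41 members and did not pass (SE 0.54, edgeR adjusted p = 0.215).

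Mx1 and Mx2 belong to the dynamin-like GTPases, which trap viral particles where they are functional, and Ifi47 is an interferon-inducible GTPase. Whether Mx1 and Mx2 are intact in this strain was not examined. Counts of all these genes were close to the detection limit. Counts of Mx1 were 12, 0 and 11 in the youngest libraries, 13, 19 and 8 in the 12-month ones, and 22, 9 and 30 in the oldest. Mx2 had 0, 17 and 1 counts, then 13, 10 and 1, then 37, 5 and 62. The counts of both overlapped between ages, with differences from 2 to 24 months of 1.16 (SE 0.80, edgeR adjusted p = 0.356) and 2.17 (SE 1.14, adjusted p = 0.214).

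Ifi47 had 0 counts in all 3 libraries at 2 months, 3, 1 and 0 at 12 months, then 5, 0 and 3 at 24 months. Taking 3 counts in the whole 2-month group as the limit, its ratio from 2 to 24 months was 2.74 on library totals without TMM scaling. That ratio leaves out the counting error of the oldest group. Slfn8, a Schlafen protein, went from counts of 1, 0 and 0 in the youngest libraries to 7, 2 and 0 in the middle group and 11, 11 and 6 in the oldest. All 3 oldest libraries were above the youngest. On the same totals the ratio was 28.8, with a 95% counting interval of 4.76 to 1180, which covers counting error only. Its ratio from 12 to 24 months was 3.24 (1.49 to 7.80).

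Of the other antiviral effectors, Rtp4 and Samd9l rose from 2 to 24 months. Rtp4, a chaperone that moves receptors to the cell surface, stood at 3.84, 8.25 and 3.65 CPM at 2 months, 2.69, 5.91 and 3.11 at 12 months, then 15.8, 6.35 and 15.1 at 24 months. Its 24-month replicate 2 lay inside the 2-month range. About 9.28% of the 100-base stretches of Rtp4 transcripts also occur in Gm45338, and the gene overlaps Masp1. Rtp4 rose by 1.25 (SE 0.40, edgeR adjusted p = 0.0492) from 2 months and by 1.67 (SE 0.40, adjusted p = 0.0373) from 12 months. Neither call held without 12-month replicate 1 or 24-month replicate 1 or 3, the first also without 2-month replicate 1 or 3 (adjusted p up to 0.166) and the second without 12-month replicate 3 (up to 0.136).

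Samd9l, which restrains viral growth and cell division, was the member that rose by 12 months. It stood at 0.498, 1.32 and 0.679 CPM at 2 months, 4.04, 5.19 and 1.59 at 12 months, then 2.59, 2.59 and 3.58 at 24 months. Both older groups lay above the youngest, and 12-month replicate 3 was the lowest of the 6 older libraries. Samd9l rose by 2.12 (SE 0.44, edgeR adjusted p = 0.0128) from 2 to 12 months and by 1.82 (SE 0.44, adjusted p = 0.0160) from 2 to 24 months. Leaving out 12-month replicate 2 ended the first call (adjusted p = 0.0691), as did leaving out 2-month replicate 3 (0.0624). The second ended without 2-month replicate 1 or 3 or 24-month replicate 3 (up to 0.0660). The order of the 12-month libraries in Samd9l was also that of the B cell markers, at 104, 156 and 16.5 CPM. T cell markers (21.6, 25.8 and 6.23 CPM) and plasmacytoid dendritic cell markers (14.3, 18.4 and 5.45 CPM) had that order too. Neither of these was used as a covariate, and the part of each cell type was not tested. In a fit with the B cell markers as a covariate the values of Samd9l were -1.15 from 2 to 12 months and -0.2 from 2 to 24 months. It then passed in neither comparison. The B cell sums at 2 months overlapped those of neither later age, so age and this covariate cannot be told apart there.

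Rsad2 (viperin), its neighbour Cmpk2, Slfn5 and Ifi44 did not pass in any comparison. Their differences from 2 to 24 months ran from 0.74 to 0.82, with adjusted p from 0.0617 for Slfn5 to 0.338 for Ifi44. Against 12 months they were 1.17 for Rsad2 (edgeR adjusted p = 0.0878), 0.89 for Cmpk2 (adjusted p = 0.183), 0.81 for Slfn5 (adjusted p = 0.0947) and 1.55 for Ifi44 (adjusted p = 0.145).

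The 5 members with the highest level per length, over all 9 libraries, were Ifi27 at 44.3, Ifi27l2a at 11.8, Bst2 at 10.1, Lgals3bp at 8.92 and Ifi35 at 6.73 CPM per kilobase of exon. Lgals3bp is a secreted glycoprotein that binds galectins. It had 17.0, 18.8 and 14.4 CPM at 2 months, 17.9, 22.7 and 16.2 at 12 months, then 43.8, 23.0 and 54.9 at 24 months. All 3 oldest libraries lay above the rest, replicate 2 by a narrow margin. Lgals3bp rose by 1.28 (SE 0.25, edgeR adjusted p = 0.00580) from 2 months, in all 9 fits with a library left out, and by 1.10 (SE 0.25, adjusted p = 0.0260) from 12 months. The latter was lost without 12-month or 24-month replicate 1 or 3 (adjusted p up to 0.0967).

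Ifi27, a small membrane protein of mitochondria and nucleus, had 55.1, 65.2 and 63.5 CPM at 2 months, 46.0, 47.7 and 56.9 at 12 months, then 98.1, 62.3 and 90.1 at 24 months. The oldest group was above the 12-month group and overlapped the youngest. Ifi27 rose by 0.73 (SE 0.15, edgeR adjusted p = 0.0197) from 12 months and differed by 0.45 from 2 months (SE 0.15, adjusted p = 0.0663). It did not pass without 12-month replicate 1 or 2 or 24-month replicate 1 or 3 (adjusted p up to 0.0856).

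Ifi27l2a had 4.31, 4.14 and 4.07 CPM, then 4.09, 4.82 and 3.39, then 6.89, 4.20 and 13.1. The youngest libraries were close together and the oldest far apart, and the difference from 2 months was 0.95 (edgeR adjusted p = 0.0584). Bst2 (tetherin), which holds budding virus at the cell surface, had 6.68, 11.7 and 8.03 CPM, then 5.37, 8.03 and 6.86, then 11.9, 7.84 and 15.8. The ages overlapped, with a difference of 0.44 from 2 to 24 months (edgeR adjusted p = 0.272). Ifi35 had 8.69, 15.2 and 10.1 CPM at 2 months, a mean of 9.77 ± 0.311 at 12 months, then 14.4, 10.8 and 16.1 at 24 months, and differed by 0.29 (adjusted p = 0.341). Xaf1, an antagonist of an apoptosis inhibitor, differed by 1.19 from 12 to 24 months (adjusted p = 0.0916).

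Members with and without the promoter element can be set side by side. Between 2 and 24 months 2 of 14 tested members with it rose, with a median of 0.60, and 5 of 15 without it, with a median of 0.82. Between 12 and 24 months the counts were 3 of 14 with a median of 1.02 and 3 of 15 with a median of 0.88. These are descriptions with no test.

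The interferons themselves were barely detected. All 21 ligand genes listed were in the table, and none had enough counts to be tested. Their summed counts were 2, 0 and 0 in the youngest libraries, 5, 0 and 1 in the 12-month ones, and 1, 0 and 2 in the oldest. Ifnb1 had 1 count, in 24-month replicate 3, and Ifng had 1, 0 and 0, then 5, 0 and 1, then 1, 0 and 1. At this depth a difference in ligand RNA was not detectable.

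Calls among receptor and kinase genes went in both directions. Of 9 tested, 3 rose and 1 fell from 2 to 24 months, against 9.81% and 7.55% of all tested genes. From 12 to 24 months 2 rose and 1 fell, against 2.79% and 1.6%. From 2 to 12 months 0 passed, against 5.4% higher and 2.52% lower, and 2 had an unadjusted p under 0.05 with edgeR. Jak2, a kinase of the interferon gamma receptor, had 5.93, 3.61 and 4.98 CPM at 2 months, 4.77, 5.11 and 4.23 at 12 months, then 11.3, 11.3 and 17.9 at 24 months. All 3 oldest libraries were above the rest, replicate 2 included. Jak2 rose by 1.48 (SE 0.21, edgeR adjusted p = 0.00131) from 2 months and by 1.52 (SE 0.21, adjusted p = 0.00193) from 12 months.

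Jak1, which serves the receptors of type I interferon, interferon gamma and interferon lambda, had 61.2, 62.4 and 60.0 CPM, then 72.7, 75.9 and 73.2, then 51.7, 47.8 and 44.3. The 3 ages did not overlap. Jak1 fell by 0.35 (SE 0.09, edgeR adjusted p = 0.0183) from 2 to 24 months and fell by 0.63 (SE 0.09, adjusted p = 0.00198) from 12 to 24 months. Ifnlr1, a chain of the interferon lambda receptor, had means of 5.01 ± 0.402, 4.08 ± 0.511 and 8.06 ± 0.980 CPM and rose by 0.69 (edgeR adjusted p = 0.0117) and 0.98 (adjusted p = 0.00430). Ifngr1 rose by 0.66 from 2 to 24 months (adjusted p = 0.0155).

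The type I receptor chains and their kinase Tyk2 did not pass the test in any comparison. Ifnar1 was at 6.07 ± 0.586, 6.08 ± 0.529 and 6.38 ± 0.694 CPM, with a difference of 0.07 from 2 to 24 months (SE 0.15, edgeR adjusted p = 0.777). Ifnar2 differed by 0.15 (SE 0.18, adjusted p = 0.627) and Tyk2 by 0.01 (SE 0.11, adjusted p = 0.973).

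Some genes that sense nucleic acid upstream of interferon rose between 2 and 12 months. Of 16 tested, 4 rose and 0 fell from 2 to 12 months, against 5.4% and 2.52% of all tested genes. From 2 to 24 months 5 rose and 0 fell, against 9.81% and 7.55%. From 12 to 24 months 0 passed with edgeR, against 2.79% higher and 1.6% lower, with 0 at an unadjusted p under 0.05. The 4 at 12 months were the endosomal receptors Tlr7 (2.26, edgeR adjusted p = 0.0246) and Tlr9 (4.67, adjusted p = 0.00152), their chaperone Unc93b1 (0.91, adjusted p = 0.0169) and the transcription factor Irf5 (1.55, adjusted p = 0.0109). Their values from 2 to 24 months were 2.30, 3.86, 0.83 and 1.31. Tlr9 had 0.0249, 0.0294 and 0.0283 CPM at 2 months, 0.858, 0.981 and 0.477 at 12 months, then 0.445, 0.298 and 0.564 at 24 months. Both older groups lay above the youngest and overlapped each other. B cell and macrophage markers also rose by 12 months, as given next, and their part in the rise of these 4 genes was not tested.

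Among negative regulators of the pathway, 13 were tested. Of these, 4 rose from 2 to 12 months, against 5.4% of all tested genes, and 2 rose from 2 to 24 months, against 9.81%. From 12 to 24 months 0 passed, against 2.79% higher, with 0 at an unadjusted p under 0.05. In each comparison 0 were lower, against 2.52%, 7.55% and 1.6% of all tested genes. In so short a list the counts in the comparisons with 24 months lie near these shares. Nlrc5, a regulator of MHC class I genes, rose by 2.68 (edgeR adjusted p = 0.00918) and 2.56 (adjusted p = 0.00717) at 12 and 24 months. Samhd1, which depletes nucleotides, rose by 0.92 (adjusted p = 0.0222) and 0.79 (adjusted p = 0.0250). The phosphatase gene Ptpn6 and Tnfaip3, an inhibitor of NF-kappa B signalling, rose from 2 to 12 months by 0.81 (edgeR adjusted p = 0.0222) and 1.36 (adjusted p = 0.0327). B cell, T cell and macrophage markers also rose by 12 months, and their part in the rise of these genes was not tested.

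A list of 48 other interferon-stimulated genes, none of them members, had 41 tested. At 24 against 2 months 17 rose and 0 fell, against 9.81% and 7.55% of all tested genes, with a median of 0.86. From 2 to 12 months 4 rose and 1 fell, against 5.4% and 2.52%, with a median of 0.49. The fall was that of Ifitm2, by 0.56 (edgeR adjusted p = 0.0360). The 4 that rose were Ifi203, Ifi209, Apobec3 and Epsti1, with values of 1.23, 2.76, 0.78 and 1.89. At 24 against 12 months 3 rose (Apol9a, Apol9b and Oas1g) and 0 fell, against 2.79% and 1.6%. Apol9a, an apolipoprotein L gene, had 0.249, 1.15 and 0.453 CPM at 2 months, 0.678, 1.37 and 0.682 at 12 months, then 6.44, 2.82 and 8.94 at 24 months. Its oldest libraries were above all others. It rose by 3.32 (SE 0.55, edgeR adjusted p = 0.00265) from 2 months and by 2.73 (SE 0.52, adjusted p = 0.0117) from 12 months. Its relative Apol9b rose by 3.36 and 2.67 and Oas1g, which shares sequence with the member Oas1a, by 1.63 and 1.99.

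Of a list led by interferon gamma 18 genes were tested. From 2 to 12 months 3 rose, from 2 to 24 months 10 and from 12 to 24 months 0. Among all tested genes 5.4%, 9.81% and 2.79% rose in the same order. From 12 to 24 months 4 of the list had an unadjusted p under 0.05 with edgeR, and 0 fell in any comparison. The median of the list was 0.65, 1.44 and 0.51 in the same order. The chemokine gene Cxcl9, a typical target of interferon gamma, rose by 3.24 (edgeR adjusted p = 0.0226) and 3.8 (adjusted p = 0.00662) at 12 and 24 months. Also called at 12 months were Ciita, the switch of MHC class II genes (2.83, edgeR adjusted p = 0.0115), and the guanylate-binding protein gene Gbp5 (1.44, adjusted p = 0.0381). The part of the immune cells whose markers rose by 12 months was not tested here either.

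Immune cell markers also differed by age, and in whole glands more cells of a type cannot be told apart from more RNA per cell. Summed over 8 markers, B cell RNA was 0.382 to 0.622 CPM at 2 months, 16.5 to 156 at 12 months and 13.4 to 23.0 at 24 months, and 8 of 8 rose from 2 to 12 months and 6 of 8 fell from 12 to 24 months. All 7 T cell markers rose from 2 months at both ages, with sums of 0.822 to 1.42, 6.23 to 25.8 and 7.91 to 16.2 CPM. Of 10 macrophage markers 6 rose from 2 to 12 months, 9 from 2 to 24 months and 2 from 12 to 24 months. Among all tested genes 5.4%, 9.81% and 2.79% rose in the same order. The macrophage sum was 70.0 to 104 CPM at 2 months, 197 to 261 at 12 months and 268, 302 and 379 at 24 months. Adipocyte markers moved with age as well: 5 of 5 rose from 2 months at both later ages, and 0 passed with edgeR from 12 to 24 months, with 0 at an unadjusted p under 0.05. They summed to 0.113 to 0.797 CPM at 2 months, 6.57 to 21.2 at 12 months and 4.61 to 18.1 at 24 months, and their part in the members' differences from 2 months was not tested.

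Within the 24-month group the macrophage sum of replicate 2 lay between those of replicates 1 and 3, and its interferon response level lay below both. Plasmacytoid dendritic cells are a main source of type I interferon. Their 5 markers summed to 2.37 to 2.73, 5.45 to 18.4 and 3.78 to 6.46 CPM, and 1 of 5 rose from 2 months at each later age. The values of the 5 ran from -0.22 to 7.88 at 12 months and from -0.45 to 6.0 at 24 months. At 12 months the sums were 14.3, 18.4 and 5.45 CPM, in the order of the B cell and T cell sums, whose part was not tested. Siglech, a defining marker, had 6, 5 and 7 counts, then 25, 13 and 18, then 13, 17 and 28. None of the 5 endothelial markers passed with edgeR in any comparison, with 2, 0 and 1 at an unadjusted p under 0.05. Of the neutrophil markers Retnlg, S100a8 and S100a9 were at 0 in all libraries at 2 months, and the summed level of the 4 reached 2.58 CPM at most. Only 1 of the 4 was tested, and it rose by 2.23 from 2 to 24 months. It did not pass from 2 to 12 months (1.68) or from 12 to 24 months (0.55). With the macrophage markers as a covariate 0 members passed in any comparison, and from 2 to 24 months 1 of all 14958 genes did. The members' median was then 1.03 from 2 to 24 months, with 36 of 41 above 0. It was 0.98 from 12 to 24 months (38 of 41) and -0.03 from 2 to 12 months (20 of 41). Since the macrophage sums of the 3 ages did not overlap, age and this covariate cannot be told apart. With the B cell markers as a covariate 0 members passed in any pairwise comparison and 13 of all genes did from 2 to 24 months. The members' median was then 0.35 from 2 to 24 months, with 33 of 41 above 0. It was -0.94 from 2 to 12 months (7 of 41) and 1.3 from 12 to 24 months (41 of 41). The B cell sums at 2 months overlapped those of neither later age. Age and this covariate therefore cannot be told apart in the comparisons with 2 months.

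**Figure D5:**
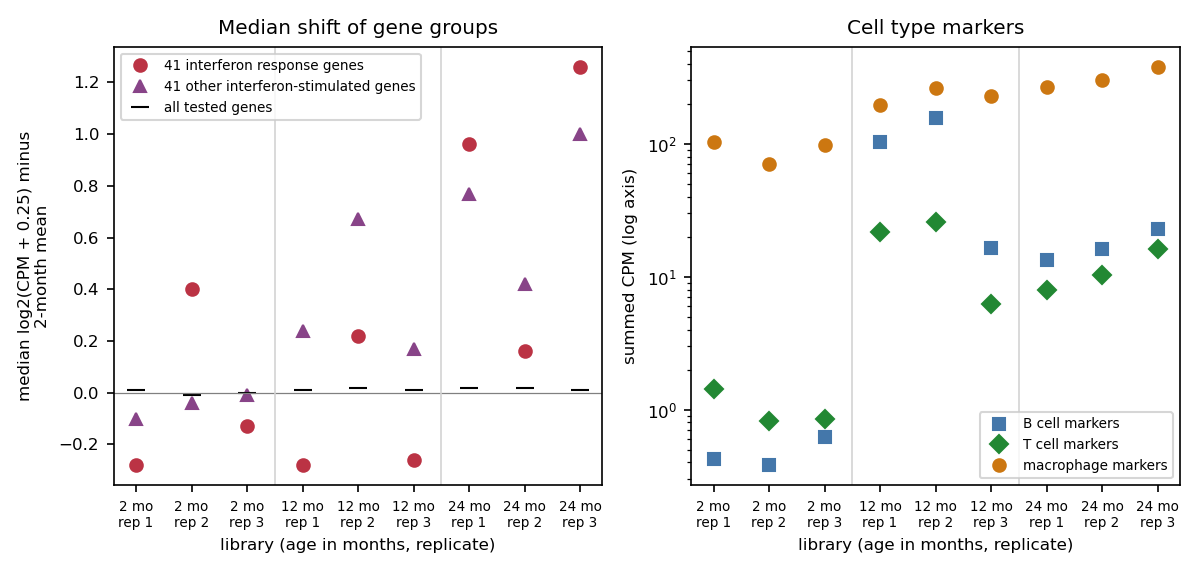
Left, the median difference from the 2-month mean in log2(CPM + 0.25) for the members, 41 other interferon-stimulated genes and all tested genes in each library; right, summed CPM of B cell, T cell and macrophage markers on a log axis. The members are highest in 24-month replicates 1 and 3 (0.96 and 1.26), while B cell markers are highest in 12-month replicates 1 and 2 (104 and 156 CPM).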

How the data were processed

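RNA of whole lacrimal glands was read as 100 bp pairs on a BGISEQ500RS, per the labels' protocols. The deposited table gives integer read counts for each gene. The submitters' processing notes name STAR, HTSeq, cutadapt, FastQC and DESeq2 and the GRCm38 assembly. The version of each tool, the annotation release and the strand setting were not given in sources used here. Values on the log2 scale, also deposited, were checked; they equal log2(count / size factor + 1) (100% within 1e-06) and were used no further. Symbols came from GENCODE M21 for 54165 of 54232 genes; the other 67 held at most 0.00105% of a library's counts.

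All 9 libraries entered 1 edgeR 4.0.16 model of the 3 ages in R 4.3.3, with TMM scaling, a minimum count of 10 in filterByExpr and the quasi-likelihood F test. After filtering, 14958 genes remained, holding 99.93% or more of every library. The fit had 6 residual degrees of freedom and a common coefficient of variation of 21.2%. Adjusted p-values (Benjamini-Hochberg over all tested genes) were called under 0.05. At 40516863 to 42573877 counts per library, genes of a few counts are known only within wide intervals. Shifts by library are in log2(CPM + 0.25).

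The 43 members and all gene lists were chosen with earlier results of these data known, so they lend no independent support. Named in full are members called in any pairwise comparison, the 5 uncalled members with the largest difference from 2 to 24 months, and the 5 highest per length. Library values of Irf7, Isg15, Ifit1, Ifi47 and Slfn8 were added after they were seen; from the other lists called genes were eligible. Alternatives were RLE or total-count scaling, other count filters, DESeq2 1.42.0, limma 3.58.1 voom, no antigen receptor genes, a replicate block, 6 libraries, libraries left out, marker covariates and other thresholds. The procedure was tested on simulated data; in the single draw for 24 against 2 months it made more false calls than the threshold allows on average, so calls close to 0.05 there are less firm. Some items are not reported here.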

Additional observations from a re-analysis of the deposited data

How the results depend on the processing

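From 2 to 24 months all members with a value stayed above 0 under every scaling, filter and tool tried. Exceptions were 40 of 41 without 24-month replicate 1, 40 of 42 without 24-month replicate 3, 41 of 42 without 2-month replicate 1, and 36 and 33 of 41 with the macrophage and B cell covariates. Low counts limit Ifi47, Slfn8, Mx1 and Mx2. Members called, main against alternative, were as follows, and the causes were not tested. For 12 against 2 months (1 member) they were 3 with library totals, 5 with no count filter (2 higher and 3 lower), 3 with DESeq2, 0 without the 3 libraries with salivary transcripts, 0 with either covariate, 2 at an adjusted p under 0.1, 0 under 0.01, and 0 to 3 with 1 library left out (1 higher and 1 lower without 2-month replicate 1). For 24 against 2 months (14) they were 23 with library totals, 28 with no filter, 8 without the salivary libraries, 0 with either covariate, 3 under 0.01, and 3 to 22 with 1 library left out. For 24 against 12 months (11) they were 3 with library totals, 27 with no filter, 21 with DESeq2, 5 with voom, 4 with the replicate block, 0 without the 2 libraries with muscle transcripts, 0 with either covariate, 17 under 0.1, 0 under 0.01, and 0 to 18 with 1 library left out. For the 3 ages (16) they were 32 with no filter, 25 with DESeq2, 10 with voom, 8 without the muscle libraries, 0 with the macrophage covariate, 26 under 0.1, 3 under 0.01, and 5 to 26 with 1 library left out. Where a fit leaves 1 library at 12 months, it is assumed to vary like the others.

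All genes called moved likewise. At 12 against 2 months (1185) they were 2025 with no filter, 1822 with DESeq2, 700 with the replicate block, 127 without the salivary and 746 without the muscle libraries, 3 with either covariate, 1919 under 0.1, 383 under 0.01, and 435 to 1285 with 1 library left out. At 24 against 2 months (2597) they were 625 without the salivary libraries, 1 and 13 with the macrophage and B cell covariates, 890 under 0.01, and 1160 to 2620 with 1 library left out. At 24 against 12 months (656) they were 340 with library totals, 1486 with no filter, 1236 with DESeq2, 406 with the block, 170 and 132 without the salivary and muscle libraries, 57 and 222 with the covariates, 1191 under 0.1, 211 under 0.01, and 312 to 699 with 1 library left out. For the 3 ages (2536) they were 1637 with the block, 471 without the salivary libraries, 358 and 892 with the covariates, 3852 under 0.1, 841 under 0.01, and 1394 to 2533 with 1 library left out.

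Replicate numbers did not pair the samples: same-numbered libraries of different ages correlated between -0.149 and 0.0656 in their deviations. With the replicate block 1, 10 and 4 members passed in the order above. Called values that changed sign were Samd9l with the B cell covariate (-1.15 from 2 to 12 and -0.20 from 2 to 24 months) and Ifi204 and Parp12 from 2 to 24 months with the macrophage covariate (-0.63 and -0.16). Of 2693 single values under an alternative 2269 kept their direction and call, and the 5 members highest per length were the same with the longest transcript. Promoters with the element numbered 15, 18 with the last base left out, 8 with a C required after the first GAAA, and 12 in the 250 bases before the start.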
